A study of Homo sapiens with 6 samples.

Results

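CC chemokines are small secreted proteins named for a pair of adjacent cysteines. Members of the family were chosen by gene symbol, and the 10 genes CCL1, CCL2, CCL3, CCL4, CCL5, CCL7, CCL8, CCL18, CCL20 and CCL22 were taken out of 19976 genes in the deposited table. The RNA was from THP-1, an established human line grown from an acute monocytic leukaemia, turned into macrophage-like cells with 50 ng/ml of the phorbol ester PMA for 48 h. Cells then received for 48 h either 200 nM of siRNA against the circular RNA hsa_circ_0004287 (circ siRNA, 3 libraries) or 200 nM of a control siRNA labelled NC (control siRNA, 3 libraries). All 6 libraries were made after 3 h of lipopolysaccharide (LPS) at 200 ng/ml, so no library without PMA or without LPS was compared. The question was which transcripts differ after knockdown of the circular RNA. The labels number the libraries 1 to 3 in each group but do not say that they are from separate cultures, so the p-values rest on a spread between libraries that may be technical alone. A model of this kind rests on 1 leukaemia line and its response to a phorbol ester.

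CC chemokines bind G protein-coupled receptors on leukocytes and direct their migration. In macrophages, LPS acts through the receptor TLR4, and NF-kB and related factors then switch on many chemokine genes within hours. CCL2, CCL7 and CCL8 attract monocytes, chiefly through the receptor CCR2. CCL3, CCL4 and CCL5 attract monocytes, T cells and other leukocytes. CCL1 binds CCR8, CCL20 binds CCR6 and CCL22 binds CCR4. CCL18 is made mainly by alternatively activated human macrophages and dendritic cells.

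Libraries held 14793902 to 16736972 counts with circ siRNA and 15874084 to 16588112 counts with control siRNA. Levels below are CPM (a gene's counts scaled to a fixed library total) on TMM-scaled library sizes unless FPKM is named. Circ library 3 and control library 1 stood apart from the other 4 on the first principal component, which held 53.4% of the variance, with scores of -38.4 and -23.2 against -1.51 to 30.4. Results are therefore also given without these 2 libraries, a choice made with that separation known. Of the 10 monocyte and macrophage markers, 9 were above 1 CPM in at least 1 library, and CD68 was below 1 CPM in every library. Their summed level was 4311 to 5424 CPM of deposited totals with circ siRNA and 5142 to 5587 CPM with control siRNA. Of 8 T and NK cell markers, 6 were below 1 CPM in all libraries (CD3G and CD2 at 0), with a sum of 3.65 to 4.24 CPM with circ siRNA and 3.13 to 6.26 CPM with control siRNA. The 5 epithelial markers (EPCAM at 0) summed to at most 0.693 CPM, the 5 B cell markers to at most 3.32 CPM and the 6 fibroblast markers to at most 19.2 CPM. The 4 endothelial markers summed to 296 to 387 CPM with circ siRNA and 294 to 363 CPM with control siRNA, mostly from PECAM1, which monocytes also express, and CDH5 and KDR were below 1 CPM in all libraries. The 5 neutrophil markers together had 41.3 to 53.0 CPM with circ siRNA and 34.6 to 40.6 CPM with control siRNA, mostly from CSF3R. FCGR3B, CXCR2 and MPO were below 1 CPM in all libraries. The part of the neutrophil markers in the results below was not tested. The level of the circular RNA, and so the knockdown itself, was not analysed here.

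The siRNA against hsa_circ_0004287 went with different values for different CC chemokines. CCL8 and CCL18 were above control in every circ library, CCL1 was below control in every circ library, and the groups overlapped for the other 7 genes. None of the 10 passed the threshold in edgeR's quasi-likelihood test, where 0.0% of the 12469 genes tested were called higher and 0.00802% (1 gene, ROR2) lower at a Benjamini-Hochberg adjusted p under 0.05. Before adjustment, CCL8 and CCL18 with higher and CCL1 with lower values had p under 0.05, as did 3.77% of all genes tested on the higher side and 2.68% on the lower side. CCL18 passed the filter on low counts through its circ libraries alone, which favours a higher value. Nothing is therefore read from its place in that count or among the genes whose groups did not overlap. The groups did not overlap for 6.64% of all genes on the higher side and 5.87% on the lower side. DESeq2 called 1 member higher, CCL8, and 0 lower, where it called 0.481% of genes higher and 0.184% lower. In bulk RNA, fewer cells making a transcript and less transcript per cell cannot be told apart.

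Without circ library 3 and control library 1, edgeR called CCL7 and CCL8 higher and CCL1 and CCL3 lower, 2 members in each direction. In that fit 7.38% of all genes were called higher and 7.43% lower, and it compares 2 libraries with 2. It leaves out the library least like the others in each group. Its adjusted p-values thus rest on a spread made smaller by that choice. Across all 6 libraries, 5 members had positive and 5 negative log2 fold changes, with a median of 0.03 against -0.01 over all genes tested, and CCL5 turned positive with library totals alone or with length and GC offsets. All 10 members passed the filter on low counts.

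**Figure D1:**
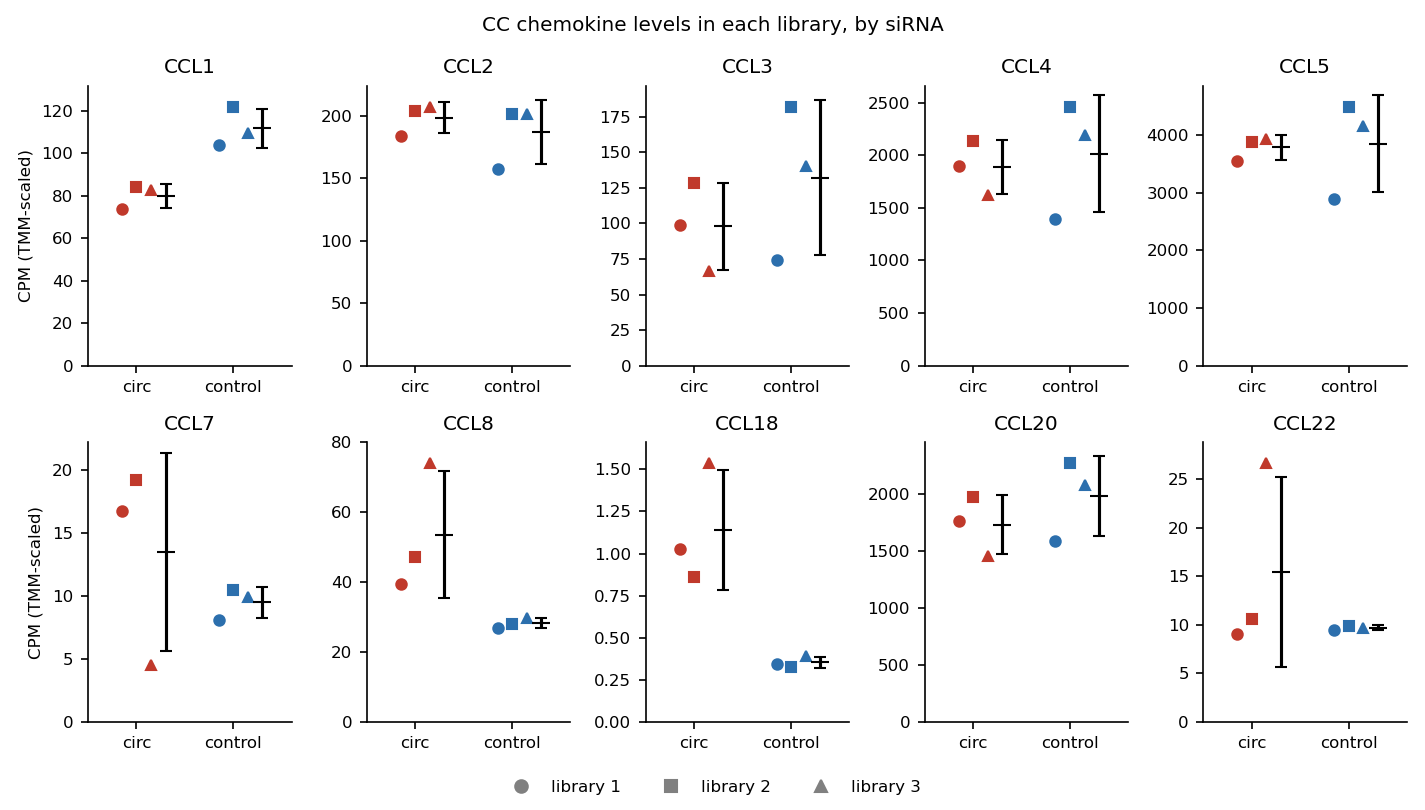
Level of each CC chemokine gene in every library, in CPM on TMM-scaled library sizes, with circ siRNA in red at the left and control siRNA in blue at the right. Symbols mark libraries 1 to 3, and black bars show mean and SD over 3 libraries. The groups lie apart for CCL1, CCL8 and CCL18, and circ library 3 lies far from the other circ libraries for CCL7 (4.49 CPM) and CCL22 (26.7 CPM). CCL18 passed the filter on low counts through its circ libraries alone.

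**Figure D2:**
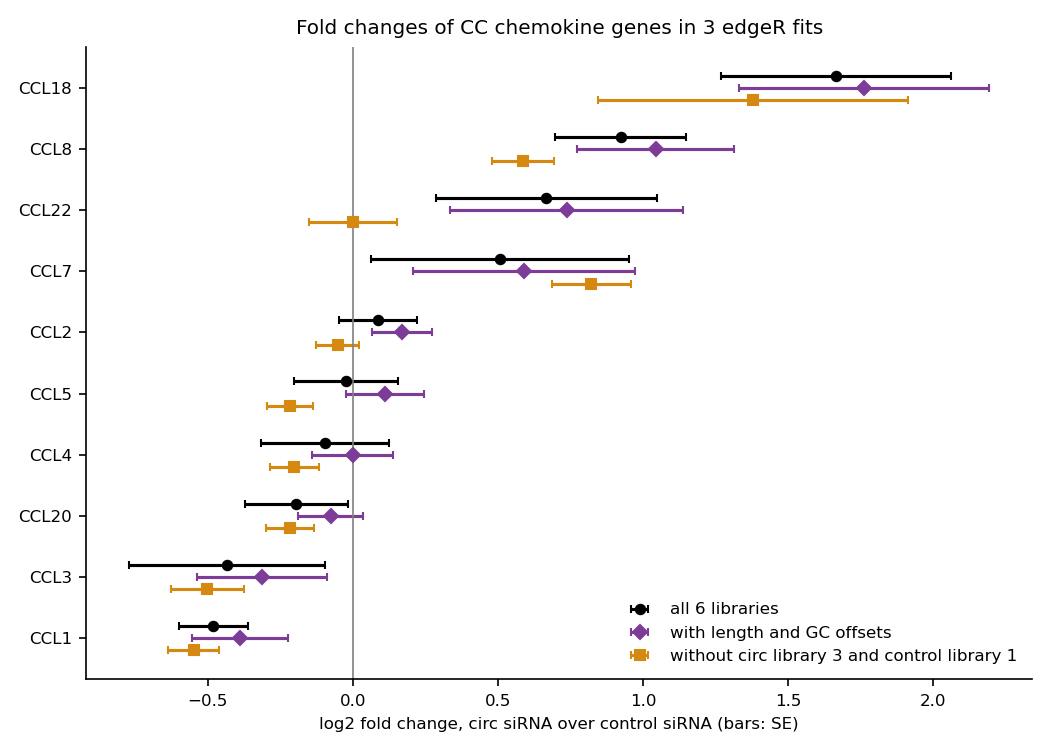
Log2 fold change of each gene, circ siRNA over control siRNA, with its standard error, in the edgeR fit of all 6 libraries (black), with length and GC offsets (purple) and without circ library 3 and control library 1 (orange). CCL22 moves from 0.67 with all libraries to 0.00 without those 2, and CCL8 from 0.92 to 0.59.

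Among the ligands of CCR2, CCL8 was the 1 whose groups did not overlap. CCL8 (ENSG00000108700, chr17:34319435-34321402, GRCh38, plus strand) had 39.5, 47.2 and 74.1 CPM in circ libraries 1 to 3, against 26.9, 28.1 and 29.9 CPM in control libraries 1 to 3. All circ libraries were above all control libraries, and the highest was circ library 3. edgeR gave a log2 fold change of 0.92 (SE 0.22, with a 95% interval from 0.41 to 1.44), or 1.90-fold, with an adjusted p of 0.443 in edgeR and 0.0360 in DESeq2. Leaving out circ library 3 lowered it to 0.62 (edgeR adjusted p = 0.393). Without circ library 3 and control library 1 the CCL8 value was 0.59 (edgeR adjusted p = 0.00471).

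CCL7 (ENSG00000108688, chr17:34270221-34272242, plus strand) had 16.8, 19.1 and 4.49 CPM in circ libraries 1 to 3, against 8.09, 10.4 and 9.91 CPM in control libraries 1 to 3. Circ libraries 1 and 2 were above all control libraries, and circ library 3 was below all of them. Its log2 fold change was 0.51 (SE 0.44, with a 95% interval from -0.51 to 1.53; edgeR adjusted p = 0.886). It was 0.92 when circ library 3 alone was left out (edgeR adjusted p = 0.267), but 0.32 without circ library 1 and 0.17 without circ library 2 (edgeR adjusted p = 0.977 and 0.927). The value was 0.82 without circ library 3 and control library 1 (edgeR adjusted p = 0.00235). CCL7 and CCL8 lie in the same cluster on chromosome 17. CCL8 had 2.36, 2.47 and 16.5 times the counts of CCL7 in circ libraries 1 to 3, against 3.33, 2.69 and 3.01 times in the control libraries. That ratio was below the control values in circ libraries 1 and 2 and far above them in circ library 3.

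CCL2, the most abundant ligand of CCR2 here (chr17:34255218-34257203, plus strand), had 184, 204 and 207 CPM in the circ libraries and 157, 202 and 202 CPM in the control libraries. The lowest value was that of control library 1, and the other 5 libraries lay between 184 and 207 CPM. This came to a log2 fold change of 0.09 (SE 0.14, with a 95% interval from -0.22 to 0.40; edgeR adjusted p = 0.916). Changes of the size seen for CCL8 lay outside that interval.

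The RefSeq promoter table (GRCh38.p14) matched 7 of the 10 members by symbol: CCL1, CCL3, CCL7, CCL8, CCL18, CCL20 and CCL22. The 250 bases before the start are shown for CCL1 and CCL8, whose groups did not overlap, and for CCL7, whose circ libraries lay on both sides of the control range. The groups did not overlap for CCL18 either. Its window, with TATAA at -31 to -27 relative to the start, is not shown. Capitals mark matches, on either strand, to the NF-kB consensus, to TGANTCA (bound by AP-1), to TTCNNNGAA (bound by STAT factors) and to TATAA (the TATA box).
CCL1, chr17:34363234-34363483, minus strand: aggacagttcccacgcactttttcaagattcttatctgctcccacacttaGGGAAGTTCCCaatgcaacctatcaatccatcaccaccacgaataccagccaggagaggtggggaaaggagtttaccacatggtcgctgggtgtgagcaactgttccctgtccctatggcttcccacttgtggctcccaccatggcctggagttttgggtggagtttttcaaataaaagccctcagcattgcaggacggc
CCL7, chr17:34269971-34270220, plus strand: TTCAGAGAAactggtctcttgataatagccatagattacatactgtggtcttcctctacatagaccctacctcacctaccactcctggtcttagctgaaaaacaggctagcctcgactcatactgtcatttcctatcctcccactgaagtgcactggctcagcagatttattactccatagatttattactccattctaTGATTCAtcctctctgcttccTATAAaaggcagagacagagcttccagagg
CCL8, chr17:34319185-34319434, plus strand: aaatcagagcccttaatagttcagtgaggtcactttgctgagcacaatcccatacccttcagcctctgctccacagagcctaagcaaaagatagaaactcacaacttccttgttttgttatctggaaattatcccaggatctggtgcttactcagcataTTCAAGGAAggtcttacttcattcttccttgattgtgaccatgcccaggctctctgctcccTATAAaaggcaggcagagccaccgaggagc
The CCL1 window held overlapping NF-kB matches from -200 to -190 relative to the start. The CCL7 window held TGANTCA at -51 to -45 and TTCNNNGAA at its first bases, and the CCL8 window held TTCNNNGAA at -91 to -83. Both CCL7 and CCL8 had TATAA at -30 to -26. Of the 7 members, 3 matched the NF-kB consensus (CCL1, CCL20, CCL22), 1 TGANTCA, 2 TTCNNNGAA and 5 TATAA. Each member was counted once, though CCL3 had 3 windows, with its matches in the first only. Among 35116 promoter windows of the same length, 9.96%, 6.57%, 6.57% and 18.9% held these. Those shares are per window and not per gene. A match describes these letters and is not evidence of binding.

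For CCL3, CCL4 and CCL5 the groups overlapped. CCL5 (chr17:35871491-35880793, minus strand) had 3545, 3881 and 3939 CPM in the circ libraries and 2895, 4496 and 4166 CPM in the control libraries. The circ values lay inside the range of the control values. Its log2 fold change was -0.02 (SE 0.18, with a 95% interval from -0.44 to 0.39; edgeR adjusted p = 0.980).

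CCL4 (chr17:36103827-36105621, plus strand) had 1899.9, 2136 and 1620.4 CPM in the circ libraries and 1392, 2461 and 2192 CPM in the control libraries. CCL4 too lay within the control range in all circ libraries, with a log2 fold change of -0.10 (SE 0.22, with a 95% interval from -0.60 to 0.41; edgeR adjusted p = 0.935). CCL3 (chr17:36088256-36090169, minus strand) had 99.0, 128 and 66.5 CPM in the circ libraries and 74.4, 182 and 140.4 CPM in the control libraries. Its lowest values were those of circ library 3 and control library 1. The CCL3 log2 fold change was -0.43 (SE 0.34, with a 95% interval from -1.21 to 0.34; edgeR adjusted p = 0.885), and it was -0.50 without those 2 libraries (edgeR adjusted p = 0.0186). With 1 library left out it was -0.13 without control library 2, -0.22 without circ library 3, -0.68 without circ library 2 and -0.72 without control library 1, and none of these was called.

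CCL3 and CCL4 have near-identical copies, named CCL3L1 and CCL4L2 in the table, whose number varies between human genomes. Coding sequences from GENCODE 29 are shown for the CCL3 pair, because they are part of what sets how far reads can be told apart. The rest of the transcripts is not shown. Capitals mark bases that differ from, or have no partner in, the other gene of the pair.
CCL3: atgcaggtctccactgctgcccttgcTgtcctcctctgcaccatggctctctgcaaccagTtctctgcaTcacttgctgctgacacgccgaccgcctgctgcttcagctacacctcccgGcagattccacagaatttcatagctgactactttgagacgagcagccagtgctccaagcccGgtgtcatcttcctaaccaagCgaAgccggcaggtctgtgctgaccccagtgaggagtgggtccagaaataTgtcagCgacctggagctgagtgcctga
CCL3L1: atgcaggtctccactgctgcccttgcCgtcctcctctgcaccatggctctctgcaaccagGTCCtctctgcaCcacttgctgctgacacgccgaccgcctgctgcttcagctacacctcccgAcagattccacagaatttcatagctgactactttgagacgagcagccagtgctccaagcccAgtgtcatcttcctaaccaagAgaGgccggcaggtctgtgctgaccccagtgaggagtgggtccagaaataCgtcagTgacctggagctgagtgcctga
All 4 genes lie on chromosome 17, with CCL3L1 at chr17:36194869-36196758 and CCL4L2 at chr17:36210924-36212878 (GRCh38). CCL3 and CCL3L1 differed at 12 of 282 aligned coding bases (95.7% identical), and CCL4 and CCL4L2 at 7 of 279 (97.5% identical). The transcripts compared shared an exact run of 83 bases for the CCL3 pair and 144 bases for the CCL4 pair. Of the 50-base stretches of the CCL3 transcript, 9.88% also occurred in that of CCL3L1. For CCL4 and CCL4L2 it was 16.8%. Over whole transcripts the CCL3 pair was 95.4% identical and the CCL4 pair 70.9%. The shares of 50-base stretches hold for the transcripts compared and need not hold for the reads. The longest exact run shared by any 2 of the 10 members was 23 bases, in CCL2 and CCL7. The tool that counted the reads is not given in the sources used here, so the split between copies is uncertain.

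Most counts of the CCL3 pair were assigned to CCL3L1. CCL3 took 1.39%, 1.57% and 1.09% of the pair's counts in circ libraries 1 to 3, and 1.32%, 1.79% and 1.59% in control libraries 1 to 3. In circ library 3, the lowest, the 95% Wilson interval was 1.03% to 1.16%, and such intervals cover counting error only. CCL4 took 40.7%, 40.1% and 36.9% of its pair's counts in the circ libraries and 37.4%, 40.3% and 40.0% in the control libraries. For both pairs the member's share was lowest in circ library 3 and next lowest in control library 1. With each pair summed into 1 gene, an alternative added after the data were seen, the log2 fold change was -0.20 for the CCL3 pair (edgeR adjusted p = 0.892) and -0.09 for the CCL4 pair (edgeR adjusted p = 0.933). CCL3L1 alone had 7047, 8025 and 6010.3 CPM in the circ libraries and 5558, 9963 and 8693 CPM in the control libraries, with a log2 fold change of -0.20 (edgeR adjusted p = 0.892). The level of CCL3 by itself cannot be read with certainty from these counts, because the use of reads that match both copies is unknown. The summed pair was higher in control libraries 2 and 3 than in any other library.

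**Figure D3:**
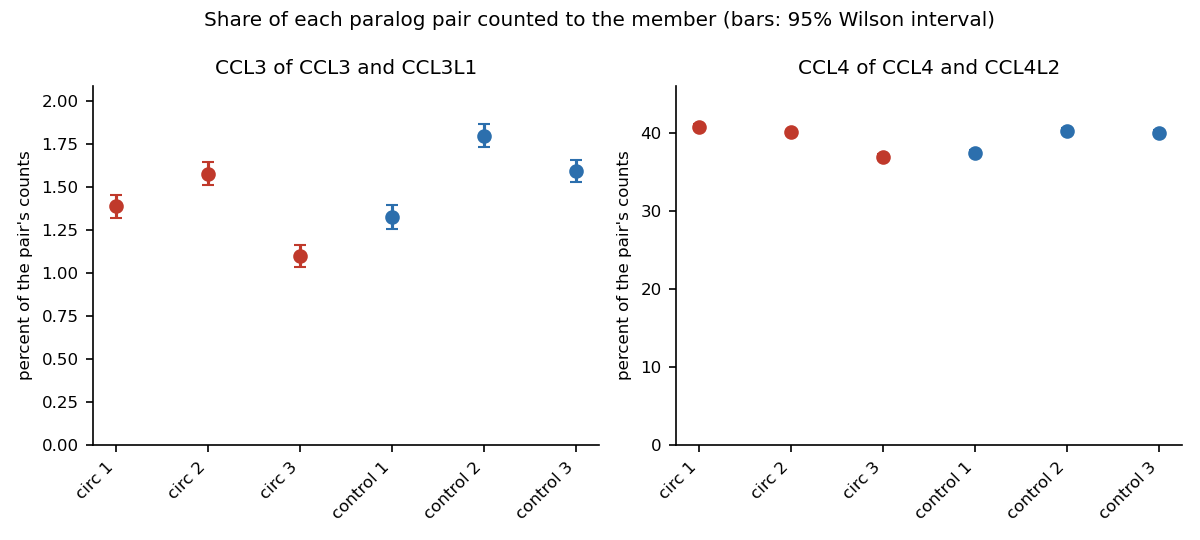
Share of the counts of CCL3 plus CCL3L1 assigned to CCL3 (left) and of CCL4 plus CCL4L2 assigned to CCL4 (right), in percent, in each library, with 95% Wilson intervals. Circ libraries are red and control libraries blue. Both shares are lowest in circ library 3, at 1.09% and 36.9%.

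CCL1, the ligand of CCR8 on regulatory and type 2 helper T cells, was lower in every circ library. CCL1 (ENSG00000108702, chr17:34360328-34363233, minus strand) had 73.6, 84.0 and 82.5 CPM in the circ libraries, against 104, 122 and 109 CPM in the control libraries. The groups did not overlap, and circ library 3 and control library 1 were not far from the others of their groups. edgeR gave a log2 fold change of -0.48 (SE 0.12, with a 95% interval from -0.76 to -0.21), or 0.717-fold, with an adjusted p of 0.458 in edgeR and 0.0956 in DESeq2. Leaving out each library in turn kept it between -0.53 and -0.41. With length and GC offsets it was nearer to no change, at -0.39 (edgeR adjusted p = 0.509). Without circ library 3 and control library 1 it was -0.55 (edgeR adjusted p = 0.00211).

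CCL18 (ENSG00000275385, chr17:36064272-36072032, plus strand) was the least abundant member. It had 17, 14 and 24 counts in the circ libraries, against 6, 5 and 6 counts in the control libraries, or 1.02, 0.859 and 1.54 CPM against 0.344, 0.328 and 0.389 CPM. The groups did not overlap, but the control values were near the limit that 3 counts set, 0.179 to 0.203 CPM. CCL18 also passed the filter on low counts through its circ libraries alone. That favours a higher value, so the separation and the values that follow are given as a description only. Its log2 fold change was 1.66 (SE 0.40, with a 95% interval from 0.75 to 2.58), or 3.17-fold, with an adjusted p of 0.443 in edgeR and 0.230 in DESeq2. With a filter of 1 CPM in 3 libraries CCL18 was not tested.

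CCL22, which attracts CCR4-bearing T cells, differed in 1 library. CCL22 (chr16:57358783-57366189, plus strand) had 9.04, 10.6 and 26.7 CPM in the circ libraries, against 9.46, 9.92 and 9.72 CPM in the control libraries. Circ library 3 held the high value, while circ libraries 1 and 2 lay on either side of the narrow control range. A log2 fold change of 0.67 (SE 0.38, with a 95% interval from -0.21 to 1.54; edgeR adjusted p = 0.864) became 0.01 when circ library 3 was left out (edgeR adjusted p = 1.00) and 0.00 without circ library 3 and control library 1. The difference in CCL22 thus came from 1 library.

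CCL20, the ligand of CCR6 on dendritic cells and T helper 17 cells, was among the most abundant members (chr2:227805739-227817564, plus strand). It had 1762, 1975 and 1459.5 CPM in the circ libraries and 1590.4, 2274 and 2082 CPM in the control libraries. The groups overlapped, with the lowest values in circ library 3 and control library 1. This came to a log2 fold change of -0.19 (SE 0.18, with a 95% interval from -0.60 to 0.21; edgeR adjusted p = 0.886).

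Members differed in how far libraries of a group spread. The coefficient of variation over circ libraries was 63.3% for CCL22, 58.4% for CCL7 and 33.9% for CCL8, against 2.35%, 13.0% and 5.27% over control libraries. For CCL2, CCL4 and CCL5 it was the other way round, with 6.26%, 13.7% and 5.61% over circ libraries against 13.7%, 27.6% and 21.9% over control libraries. Control library 1 had the lowest control value for 9 of the 10 members, CCL18 being the exception. The members are short genes, 594 to 2917 bases in the table with a median of 1496.5, against a median of 5193 over genes tested. Control library 1 was also the lowest control library for 77.7% of tested genes in that length range and for 41.9% of all genes tested. Circ library 3 was at least 2-fold above both other circ libraries for CCL22 and at least 2-fold below both for CCL7, as it was for 0.697% and 0.592% of the 9464 tested genes with at least 5 CPM. The part of transcript length in the members' values was not tested beyond the fit with length and GC offsets.

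Genes with the most similar values over the 6 libraries were sought among 9455 other tested genes with at least 5 CPM. Each gene was centred on its own mean, and the root mean square difference of log2 CPM was taken. A pattern over libraries shared by a member and such a gene follows from this choice and is given as a description only. CCL7 was most similar to CXCL6, a chemokine for neutrophils, with a difference of 0.12 against CCL7's own spread of 0.68 about its mean. CXCL6 had 151, 150.8 and 39.2 CPM in the circ libraries, against 76.6, 76.8 and 84.5 CPM in the control libraries. Like CCL7, CXCL6 was above control in circ libraries 1 and 2 and below it in circ library 3. The next were SERPING1, the inhibitor of complement C1, and NKAIN1, at 0.21 and 0.22.

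CCL8 was most similar to HCAR2, a receptor for hydroxybutyrate and niacin, with a difference of 0.07 against its own spread of 0.51. HCAR2 had 14.6, 16.99 and 27.2 CPM in the circ libraries, against 10.3, 11.5 and 10.4 CPM in the control libraries. NR4A3, an orphan nuclear receptor, and IL15, a cytokine, followed at 0.16 each, and in all 3 the highest library was circ library 3. CCL22 was most similar to CXCL11, a ligand of CXCR3, with a difference of 0.12 against its own spread of 0.54. CXCL11 had 61.9, 63.7 and 166 CPM in the circ libraries, against 71.6, 72.4 and 70.7 CPM in the control libraries. Circ library 3 alone was high for CXCL11, as for CCL22.

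Genes similar to the other members had varied known roles. CCL3 was most similar to TMSB10, an actin-binding thymosin, at a difference of 0.02 against its own spread of 0.51. TMSB10 had 1355, 1723 and 894 CPM in the circ libraries, against 999.8, 2365 and 1910.0 CPM in the control libraries. CCL20 was closest to BID, a pro-apoptotic BCL2 relative (0.01 against a spread of 0.22), CCL4 to the mitochondrial kinase gene DGUOK (0.03 against 0.28) and CCL5 to MCRS1 (0.03 against 0.20). CCL1 was closest to ARL6IP5, a membrane protein of the endoplasmic reticulum (0.06 against 0.26), and CCL2 to FBXO10 (0.02 against 0.14).

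**Figure D4:**
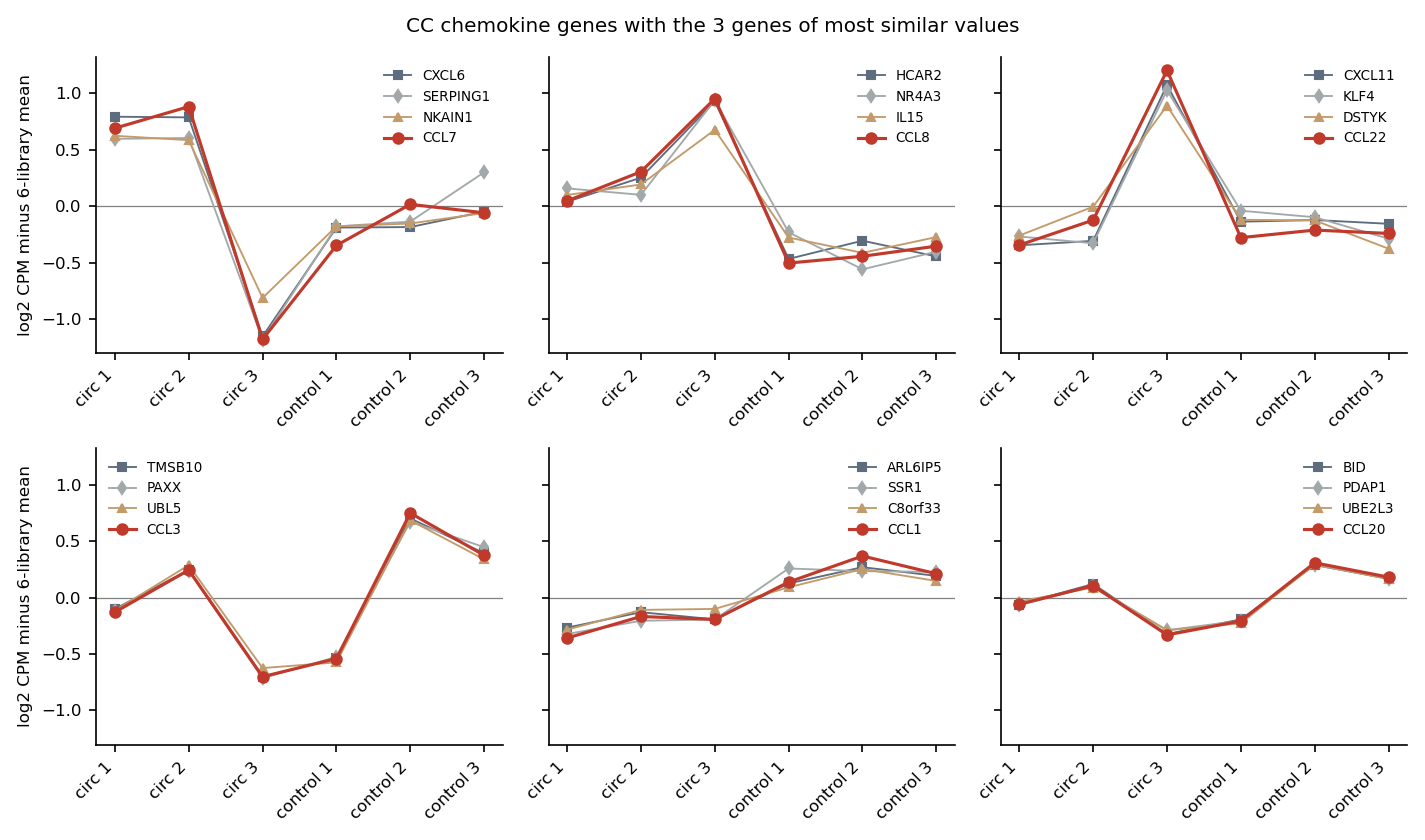
Log2 CPM minus its 6-library mean, in circ libraries 1 to 3 and then control libraries 1 to 3, for 6 CC chemokine genes (red) and the 3 genes of most similar values for each. CCL7 and CXCL6 dip in circ library 3, CCL8 and CCL22 peak there with HCAR2 and CXCL11, and CCL3 is low in both circ library 3 and control library 1 with TMSB10.

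Between members, the smallest difference was that of CCL2 and CCL5 (0.09), followed by CCL4 and CCL20 (0.12) and CCL4 and CCL5 (0.15). The largest was that of CCL7 and CCL22 (1.14). CCL7 and CCL8, with 77.3% identical coding bases, differed by 0.97. Of the 10 members, 8 lie on chromosome 17, with 4 (CCL2, CCL7, CCL8, CCL1) between positions 34255218 and 34363233 and 4 (CCL5, CCL18, CCL3, CCL4) between 35871491 and 36105621. Within the first of these clusters, CCL8 lay higher and CCL1 lower in every circ library.

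Levels per length differed widely between members. On the deposited FPKM scale CCL5 was highest, at 2553 ± 205 with circ siRNA and 2530.2 ± 440.1 with control siRNA (SD, n = 3 each). CCL20 had 1092 ± 121 with circ siRNA and 1226 ± 159.8 with control siRNA, and CCL4 had 1056 ± 103 and 1103 ± 256. The ranges of these 2 levels overlapped in both groups, though counts per length were higher for CCL20 than for CCL4 within every library. CCL5 was above both in every library.

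CCL1 followed at 136 ± 11.4 FPKM with circ siRNA and 186 ± 8.51 FPKM with control siRNA. CCL2 came next at 101 ± 8.74 and 92.9 ± 8.46 FPKM, and CCL3, as counted, at 65.6 ± 18.3 and 86.6 ± 32.2 FPKM. CCL8 had 63.3 ± 24.0 FPKM with circ siRNA and 32.5 ± 1.37 FPKM with control siRNA. The ranges of CCL2 and CCL3 overlapped in control libraries but not in circ libraries, and those of CCL3 and CCL8 overlapped in circ libraries but not in control libraries.

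At the low end, CCL7 had 15.5 ± 8.74 FPKM with circ siRNA and 10.8 ± 0.885 FPKM with control siRNA. CCL22 had 5.42 ± 3.66 and 3.30 ± 0.0984 FPKM, and its range overlapped that of CCL7 in circ libraries only. CCL18 was lowest at 0.826 ± 0.292 and 0.250 ± 0.0241 FPKM. The order of the 10 means was the same in both groups. Among all 19976 genes CCL5 ranked 12 with circ siRNA and 13 with control siRNA, CCL20 ranked 37 and 29, and CCL8 ranked 650 and 1300. CCL3L1, not a member, ranked 3 in both groups. The order depends on how reads were assigned to copies. CCL3 summed with CCL3L1 had 4876 ± 521 FPKM with circ siRNA and 5485 ± 1313 FPKM with control siRNA, and CCL4 summed with CCL4L2 had 3157 ± 199 and 3279.9 ± 636 FPKM (SD, n = 3 each). Either sum was above CCL5 in all 6 libraries.

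**Figure D5:**
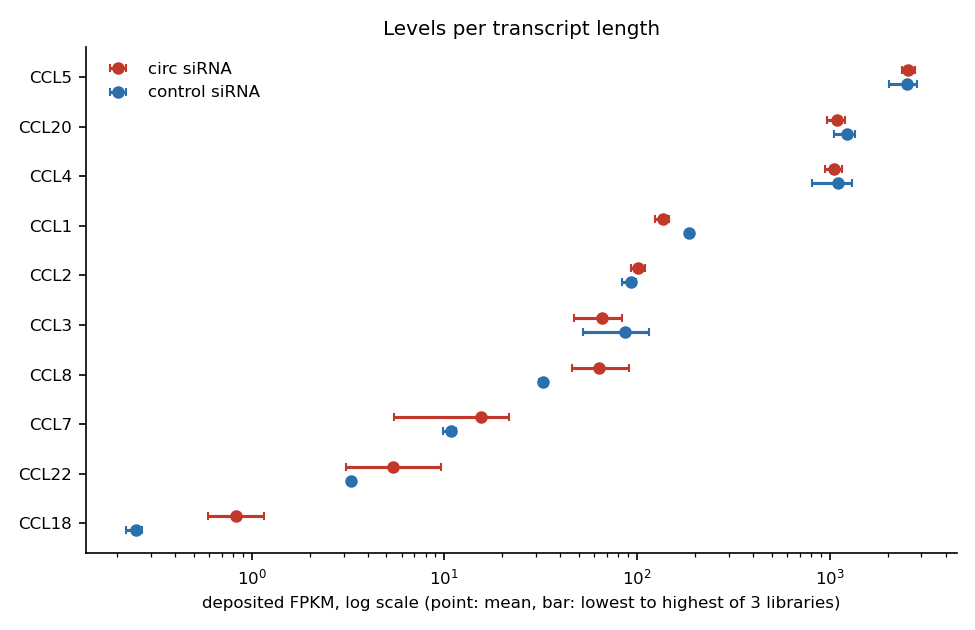
Deposited FPKM of each member on a log scale, as the mean (point) and the lowest to highest value (bar) of 3 circ siRNA libraries in red and 3 control siRNA libraries in blue. CCL5, CCL20 and CCL4 lie near or above 1000 FPKM in both groups, and CCL18 lies near or below 1 FPKM.

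Summed over the 10 members, CC chemokines took 0.763%, 0.826% and 0.789% of all counts in circ libraries 1 to 3, and 0.658%, 0.932% and 0.870% in control libraries 1 to 3. The circ values lay inside the control range. With CCL3L1 and CCL4L2 added, the share was 1.74%, 1.92% and 1.72% in the circ libraries and 1.49%, 2.23% and 2.03% in the control libraries, so these copies held more counts than the members together. The lowest share in both sums was that of control library 1.

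Of 18 other CC ligand genes listed, 16 were in the table, 8 were tested and 0 were called in edgeR or DESeq2. The 8 tested were CCL3L1, CCL4L2, CCL13, CCL19, CCL21, CCL23, CCL24 and CCL28, of which 2 had positive and 6 negative log2 fold changes (median -0.32). CCL21, a ligand of CCR7, had 0.723, 0.736 and 0.385 CPM in the circ libraries, against 0.918, 1.38 and 1.30 CPM in the control libraries, and these did not overlap. CCL21 was the 1 gene of the list with an unadjusted p under 0.05 in edgeR, as had 2.68% of all genes tested on the lower side. It had 12, 12 and 6 counts in the circ libraries, against 16, 21 and 20 in the control libraries. With means of 0.615 CPM (circ) and 1.20 CPM (control), it was named through its control libraries alone. That favours a lower value, so nothing is read from its place in these counts. Its log2 fold change was -0.94 (SE 0.38; edgeR adjusted p = 0.725). CCL28, a ligand of CCR10, had 3.74, 4.91 and 5.58 CPM in the circ libraries and 3.50, 3.22 and 3.43 CPM in the control libraries, which did not overlap, with a log2 fold change of 0.48 (SE 0.21; edgeR adjusted p = 0.774). Over all genes tested, the groups did not overlap for 6.64% on the higher side and 5.87% on the lower side. CCL13, which attracts monocytes, CCL19, CCL23 and CCL24 had at most 4.72 CPM in any library and overlapping groups. Without circ library 3 and control library 1, 1 of the 9 ligand genes tested in that fit was called, CCL3L1, at -0.30 (edgeR adjusted p = 0.0382), where 7.43% of all genes were called lower.

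Few receptors for CC chemokines passed the filter on low counts. Of 15 receptor genes in the table, 4 were tested and 0 were called in edgeR or DESeq2. CCR7, a receptor for CCL19 and CCL21 that guides cells to lymph nodes, had 119.8, 107 and 198 CPM in the circ libraries, against 74.6, 89.7 and 93.1 CPM in the control libraries. All circ libraries were above all control libraries, with the highest in circ library 3 (log2 fold change 0.72, SE 0.23; edgeR adjusted p = 0.599). Without circ library 3 and control library 1 the CCR7 value was 0.31 (edgeR adjusted p = 0.0231), and CCR7 was then the 1 receptor of 4 called, where 7.38% of all genes were called higher. CCR1, a receptor for CCL3 and CCL5, had overlapping groups, with 26.1 to 34.6 CPM with circ siRNA and 32.0 to 45.8 CPM with control siRNA.

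Genes of the path from TLR4 to NF-kB gave 16 positive and 6 negative log2 fold changes among 22 tested of 24 listed, with a median of 0.12 and 0 called in edgeR or DESeq2. NFKB1, the precursor of the NF-kB p50 subunit, had 567, 528 and 694 CPM in the circ libraries, against 513, 425 and 456 CPM in the control libraries. The groups did not overlap, and the log2 fold change was 0.36 (SE 0.15; edgeR adjusted p = 0.728). The kinase genes MAP3K7 and IRAK2 had log2 fold changes of 0.26 and 0.27 (edgeR adjusted p = 0.820 and 0.852). Without circ library 3 and control library 1, 6 genes of this path were called higher and 0 lower in edgeR, where 7.38% of all genes were called higher and 7.43% lower. Over all 6 libraries the median of all genes tested was -0.01, with 6090 positive and 6379 negative log2 fold changes.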

How the data were processed

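Libraries of poly-A RNA were sequenced from both ends, per the labels' protocols. The submitters' processing notes name CASAVA, cutadapt and HISAT2 and the genome build GRCh38. Which tool counted the reads, with which use of strand, is unknown from the labels and headers. The deposited table gives whole-number read counts per gene and, beside them, FPKM values that the authors scaled to each library's total, as checked from counts and gene lengths.

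Counts were tested with edgeR 4.0.16 (R 4.3.3; glmQLFit and glmQLFTest, two-sided, TMM, filterByExpr with minimum count 10, group as the only term), with Benjamini-Hochberg adjustment over 12469 genes. A gene was called at an adjusted p under 0.05. Each standard error was the log2 fold change divided by the root of F, and its 95% interval used the degrees of freedom of that test. CPM is on TMM-scaled library sizes. FPKM was used only to compare levels between genes. Alternatives were DESeq2 1.42.0, limma-voom (limma 3.58.1), other scalings and filters, a replicate block, libraries left out, and offsets for gene length and GC content (natural splines with 4 degrees of freedom, GC from GENCODE 29 transcripts). In counts simulated over 12469 genes with 200 changed, the share called in edgeR was 14% for genes set at 1.5-fold, 58% at 2-fold and 92% at 3-fold. Each gene was simulated on its own, without differences shared by many genes of a library, such as set circ library 3 and control library 1 apart. These shares therefore need not hold for the real counts.

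The members, gene lists and alternatives were chosen with earlier results of these data known. All members were named. From the receptor and TLR4 lists the 3 genes with the smallest p were named, except 1 receptor that is not reported here, and from other CC ligands those with at least 1 CPM in a group. Promoters came from RefSeq and coding sequences from GENCODE 29, aligned with Biopython 1.88. A depth of 3 counts corresponds to 0.179 to 0.203 CPM. Every pair of libraries within a group differed by more than sampling noise (lowest chi-square per gene 5.98).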

Additional observations from a re-analysis of the deposited data

How the results depend on the processing

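Of 161 log2 fold changes of members under alternatives, 145 had the same sign and the same call, 5 newly passed the threshold and 11 changed sign. The 11 belong to members near 0. Without both control library 1 and circ library 3, CCL2 was -0.052 and CCL5 -0.22. With each library left out in turn, CCL2 lay between -0.02 and 0.15, CCL4 between -0.30 and 0.073, CCL5 between -0.19 and 0.10, and CCL20 between -0.33 and -0.08. CCL4 was 0.0088 with length and GC offsets and the replicate block together. CCL5 was 0.013 with library totals alone, 0.11 with length and GC offsets and 0.10 with these and the replicate block. Over all genes, 0 were called higher and 1 lower. DESeq2 called 60 higher and 23 lower, length and GC offsets 6 and 6, and the fit without control library 1 and circ library 3 called 919 and 926. Genes lower numbered 2 without the filter and 0 with library totals alone, limma-voom, the replicate block, or the block with length and GC offsets. With any 1 library left out, 0 were called in either direction. Members called numbered 0, against 1 higher with DESeq2 and 2 higher and 2 lower without control library 1 and circ library 3. The cause of these changes was not tested. That last fit has fewer samples and leaves out the library least like the others in each group. The pairs kept had a chi-square per gene of 6.56 (circ) and 5.98 (control). Pairs with a library left out had 39.6 to 72.7. Adjusted p-values of that fit thus rest on a spread made smaller by the choice of libraries. The log2 ratio of the members' summed share was -0.05, and between -0.18 and 0.05 with each library left out in turn. Deviations of same-numbered libraries had correlations of -0.17, 0.46 and -0.37 across genes. With circ library 3 and control library 1 standing apart, these values cannot decide whether same-numbered libraries shared a culture. With the replicate block 0 members were called. At 5 to 24 counts, CCL18 is limited by depth.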
